A study of Mus musculus with 4 samples.

Results

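Insulin receptor signalling is represented here by 9 genes: the receptor (Insr), its substrates (Irs1 and Irs2), the adaptors that bind and restrain it (Grb10 and Grb14), the regulatory subunit of phosphatidylinositol 3-kinase (Pik3r1), the Akt kinases (Akt1 and Akt2) and the Akt substrate that controls glucose transporter traffic (Tbc1d4). They were chosen by name from 21887 protein-coding mouse genes, with earlier results of these data known. The 9 genes were looked up in 2 tables of glucocorticoid receptor (GR) binding sites. Of the 9 genes, 5 were named by a peak in differentiated PDGFRa+ cells and 0 were named in the table of differentiated CD137+ cells. The peaks numbered 6, of the 10402 in the PDGFRa+ list.

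Insulin binding activates the receptor's tyrosine kinase, which phosphorylates the Irs proteins. These recruit phosphatidylinositol 3-kinase, whose lipid product brings Akt to the membrane, and Akt phosphorylates Tbc1d4 so that vesicles carrying the glucose transporter Glut4 reach the surface of the fat cell. Glucocorticoids act through GR, a nuclear receptor that binds DNA near and far from the genes it controls, and in adipose tissue they are known both to promote fat cell differentiation and to alter the response to insulin.

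The PDGFRa+ and CD137+ groups were adipose progenitors of C57BL/6 mice, sorted with magnetic beads for PDGFRa, a growth factor receptor of fat cell progenitors, or for CD137, a receptor of the tumour necrosis factor family. All groups had been exposed to an adipogenic cocktail and carried 1 µM dexamethasone, a synthetic glucocorticoid, so neither table has an untreated counterpart. Each cell type had 1 GR immunoprecipitate and 1 input, and the labels give neither the animals' age nor which of 2 fat sources, abbreviated SAT and VAT, supplied which cells. The labels' extraction text describes embryos, at odds with the adipose source, so those steps are unknown.

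No replicate exists, the read depth is unknown, and no test between cell types or conditions was possible, so every value below is a description of 1 library. Peak scores are the authors' whole numbers on a scale that is not stated. They ran from 20 to 43344 with a median of 33, and 7209 of the 10402 peaks had exactly 26, 33, 41 or 49. Scores are compared only within the PDGFRa+ list. Positions in that list are printed as deposited. They are on a build other than the mm10 of the labels. The strand was known for 4 of the 5 genes with a peak. For these, the start sites implied by peak and distance were 100004 to 769955 bp away from the start of the gene in GRCm38. In addition, 62 peaks lay beyond the last gene of GRCm38 on their chromosome, which alone does not show another build. Marker genes could not check the cell types, since GR binding is not expression.

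GR peaks in PDGFRa+ cells were listed under the receptor, both of its inhibitory adaptors, the kinase subunit and the transport regulator, and under neither the Irs nor the Akt genes. Of the 9 genes, 5 had a peak (55.6%), against 22.0% of all protein-coding genes. The genes with a peak were Insr, Grb10, Grb14, Pik3r1 and Tbc1d4, and Grb10 alone among the 9 had more than 1, with 2 peaks. In the whole list 7.21% of protein-coding genes had 2 or more. Scores of the 6 peaks ran from 26 to 49 with a median of 39.5, against a median of 33 in the whole list. All 6 peaks lay more than 50 kb from the start site of the gene they were listed under, against 48.8% of the list. Of the 6, 5 were intergenic, against 56.3% of the list.

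**Figure D1:**
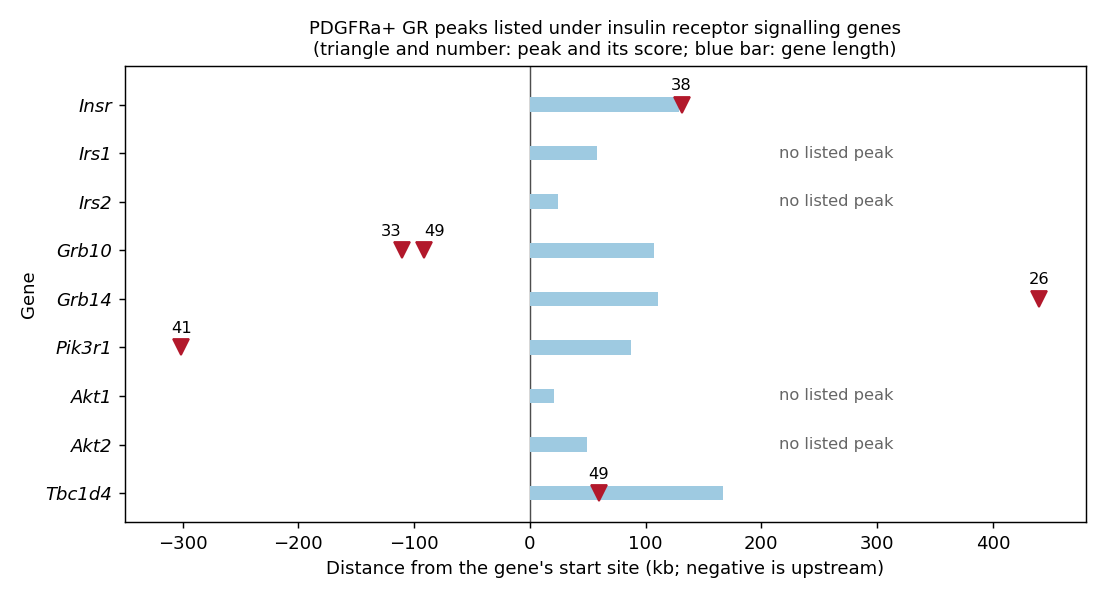
Position of each PDGFRa+ GR peak (triangle, with its score) relative to the start site of the gene it was listed under, in kb, with the length of each gene in GRCm38 drawn as a blue bar. The Tbc1d4 peak lies within its gene at 59.62 kb, the Insr peak just past the far end of the gene, and the other 4 lie 91.02 to 440.09 kb from the start site and outside the gene; Irs1, Irs2, Akt1 and Akt2 have none.

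Insr encodes the insulin receptor. Its peak had a score of 38 and lay 131101 bp downstream of the start site (chromosome 8, 3148444 to 3148589 as deposited). The gene is 128728 bp long in GRCm38, so by that length the peak stood 2373 bp past the end of the gene, and the list annotates it as intergenic. A score of 38 or more was held by 48.2% of the listed peaks, so it stood near the middle of the list. The peak was annotated to L1_Mus2, a LINE element, a repeat that held 40 peaks of the list. The nearest other listed peak was 203617 bp away, under A430078G23Rik.

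Grb10, an adaptor that binds the activated insulin receptor and inhibits it, carried the only pair. The stronger peak had a score of 49 at 91019 bp upstream of the start site (chromosome 11, 12028370 to 12028515 as deposited). The weaker had a score of 33 at 110792 bp upstream (12048143 to 12048288 as deposited). The 2 peaks stood 19773 bp apart, and each was the other's nearest listed peak. Over the list, 18.1% of peaks had another within 20 kb, and the median gap to the nearest peak was 76492 bp. Both lay in repeat sequence, the stronger in ORR1D2, an LTR element of the MaLR group, and the weaker in L1Md_A, a LINE element. L1Md_A held 75 peaks of the list and ORR1D2 held 16. Upstream of Grb10 in GRCm38 the next protein-coding gene is Cobl, 199248 bp away, which had 2 peaks of its own with a highest score of 41.

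Grb14 encodes a related adaptor that also inhibits the insulin receptor. Its peak was the weakest of the 6, with a score of 26, and the most distant, at 440088 bp downstream of the start site (chromosome 2, 64420636 to 64420835 as deposited). It was also the only one wider than 146 bp, the least width in the list, which 71.9% of listed peaks had. The Grb14 peak was 200 bp wide and lay outside annotated repeats. Of the whole list, 94.0% of peaks scored as high or higher and 9.11% lay as far or farther from their gene. On that side of Grb14 the next protein-coding gene in GRCm38 is Fign, 814438 bp from it. Fign had 5 peaks, of which the nearest scored 58 and stood 190439 bp from the Grb14 peak.

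Pik3r1 encodes p85alpha, the subunit that docks phosphatidylinositol 3-kinase onto Irs proteins. Its peak had a score of 41 and lay 301130 bp upstream (chromosome 13, 102839230 to 102839375 as deposited). It was annotated to MER47B, a DNA transposon, a repeat that held 2 peaks of the list. A score of 41 or more was held by 44.3% of peaks, and 14.0% lay as far or farther from their gene. The next protein-coding gene upstream in GRCm38, Cd180, is 925330 bp away and had 2 peaks.

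Tbc1d4 encodes AS160, the Rab GTPase-activating protein that holds back Glut4 vesicles until Akt phosphorylates it. It held the only peak of the 6 that lay within a gene, in intron 1 of 18, 59619 bp from the start site (chromosome 14, 101948717 to 101948862 as deposited). Its score of 49 equalled that of the stronger Grb10 peak, a value that 1205 listed peaks had. Scores of 49 or more were held by 20.5% of listed peaks. Of the 9 genes 2 (Grb10 and Tbc1d4) reached 49, against 6.03% of protein-coding genes. That cut is the highest score of the 6 peaks themselves, so the contrast depends on where it was placed. At 50 or more it was 0 of the 9, against 2.55%. The peak lay outside annotated repeats. Counting peaks in an intron of any gene, their own or another, 1 of the 9 genes was named by one, against 11.2% of protein-coding genes.

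By the list's annotation and distances, the promoters of the 9 genes held no peak. RefSeq windows of 250 bases before to 50 bases after a start site (GRCm38.p6) were found for 8 of the 9 genes, 14 windows in all; Insr was not matched. The windows were searched on both strands for the 6-base motif of GR, AGAACA or its reverse complement TGTTCT, and for the looser palindrome ACANNNTGT, the core of the full GR element. The end of AGAACA is the start of the palindrome, so the 2 motifs can overlap. Of the 14 windows 1 held the 6-base motif, that of Tbc1d4, against 19.0% of the 32851 mouse windows. None held the palindrome, which 6.85% of all windows did. The Tbc1d4 window and 1 of the 2 Grb10 windows, from the genes with the strongest peaks, are printed 5′ to 3′ as examples with and without the motif, which is in capitals.
Tbc1d4 (chr14:101609142-101609441, minus strand): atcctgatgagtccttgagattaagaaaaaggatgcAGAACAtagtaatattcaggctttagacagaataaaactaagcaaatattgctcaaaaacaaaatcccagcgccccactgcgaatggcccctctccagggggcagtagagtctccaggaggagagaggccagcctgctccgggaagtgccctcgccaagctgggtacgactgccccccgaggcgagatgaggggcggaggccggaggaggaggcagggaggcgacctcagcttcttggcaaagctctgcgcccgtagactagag
Grb10 (chr11:12037371-12037670, minus strand): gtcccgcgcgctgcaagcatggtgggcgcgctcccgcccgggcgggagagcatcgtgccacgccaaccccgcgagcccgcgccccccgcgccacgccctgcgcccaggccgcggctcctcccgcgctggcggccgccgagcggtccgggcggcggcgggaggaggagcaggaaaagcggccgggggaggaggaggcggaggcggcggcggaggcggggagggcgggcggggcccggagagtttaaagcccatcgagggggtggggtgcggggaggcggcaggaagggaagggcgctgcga
The motif of Tbc1d4 begins 214 bases before the start site, in a window with 55.7% G and C and 12 CpG pairs. The printed Grb10 window has no match and consists of 80.0% G and C with 45 CpG pairs, the highest of the 14, whose lowest was 43.7% in a Pik3r1 window. The other Grb10 window, also without a match, has 52.3% G and C and 9 CpG pairs, near the Tbc1d4 values. The median over all mouse windows was 52.7%. The peaks of both genes lay far from these windows, and the peaks' own sequence was not read, because no genome of the list's build was used.

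**Figure D2:**
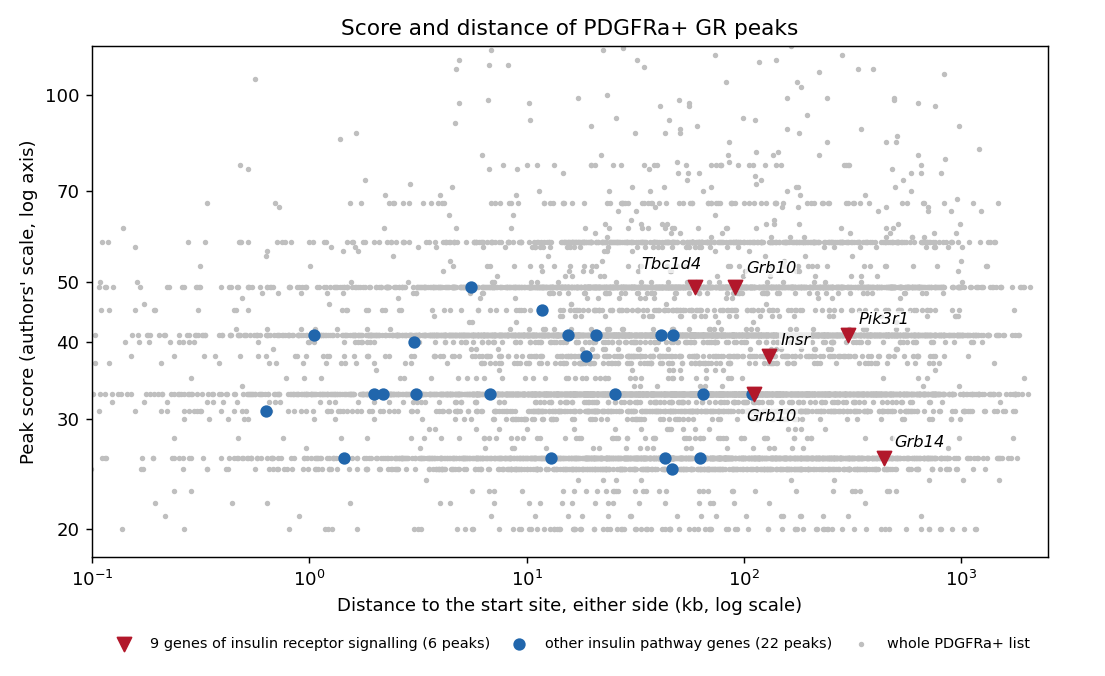
Score of each PDGFRa+ GR peak (log axis, authors' scale) against its distance to the start site on either side (log axis, kb), with the 6 peaks of the 9 genes as red triangles, 22 peaks of 65 other insulin pathway genes as blue circles and the list in grey (148 peaks with scores above 120 or distances under 100 bp are not drawn). The red triangles lie at or right of 59.62 kb with scores of 26 to 49, while the blue circles spread from 0.63 to 109.03 kb.

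Irs1 and Irs2, the substrates that couple the receptor to phosphatidylinositol 3-kinase, were named by no peak. On the side of lower coordinates, Irs1 lies 865399 bp from its neighbour in GRCm38, Nyap2, which had 2 peaks with a highest score of 45. On the other side, 5 protein-coding genes without a peak stood between Irs1 and Agfg1, which had a highest score of 41. Irs2 stood between Myo16 and Col4a1, neither with a peak, and the first genes with one were Tnfsf13b (score 33) and Col4a2 (score 23). Akt1 and Akt2, the kinases that carry the signal onward, were also without a peak. Akt1 had 10 protein-coding genes without a peak on the side of lower coordinates and 3 on the other, the nearest gene with one being Pld4, 85562 bp away with a score of 41. Akt2 had 8 and 7 such genes, up to Sptbn4 (score 41) and Zfp974 (score 26). No listed peak was annotated to a transcript of Irs1, Irs2, Akt1 or Akt2 under another gene's name. Of the 9 genes, Tbc1d4 was the only one with a peak annotated to its own transcript. A gene without a listed peak is not shown to be unbound, since the threshold and depth of the list are unknown.

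The genes with a peak were the longer ones. Each peak is listed under the gene with the nearest start site, and over the whole list the share of genes with a peak was higher among longer genes. The 5 genes with a peak were 87457 bp (Pik3r1) to 166922 bp (Tbc1d4) long, and the 4 without were 21064 bp (Akt1) to 58335 bp (Irs1) long, with no overlap. Among protein-coding genes sorted into 10 classes of length, the share with a peak was 8.41% in the shortest class and 54.0% in the longest. Insr, Grb14 and Tbc1d4 were in the longest class, and Grb10, Pik3r1 and Irs1 in the class below it, where 34.3% had a peak. Akt2 was in a class with 25.2%, and Irs2 and Akt1 in a class with 18.3%. The median length of the 9 genes was 87457 bp, against 17169 bp for all protein-coding genes. How much of the 9 genes' share of 55.6% goes with length was not tested.

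Counting the gaps to the flanking protein-coding genes with each gene gave another order. By that measure Pik3r1 (1860068 bp), Grb14 (990302 bp), Irs1 (948752 bp) and Irs2 (563682 bp) fell in the widest class, in which 58.7% of genes had a peak. Irs1 and Irs2 were without a peak there, and Grb14 and Pik3r1 had theirs far out in these gaps. Grb10 and Tbc1d4 were in the class with 38.9%, Akt2 in a class with 18.6% and Akt1 in a class with 9.43%. Insr is the first protein-coding gene on its chromosome in GRCm38 and was given no such value.

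**Figure D3:**
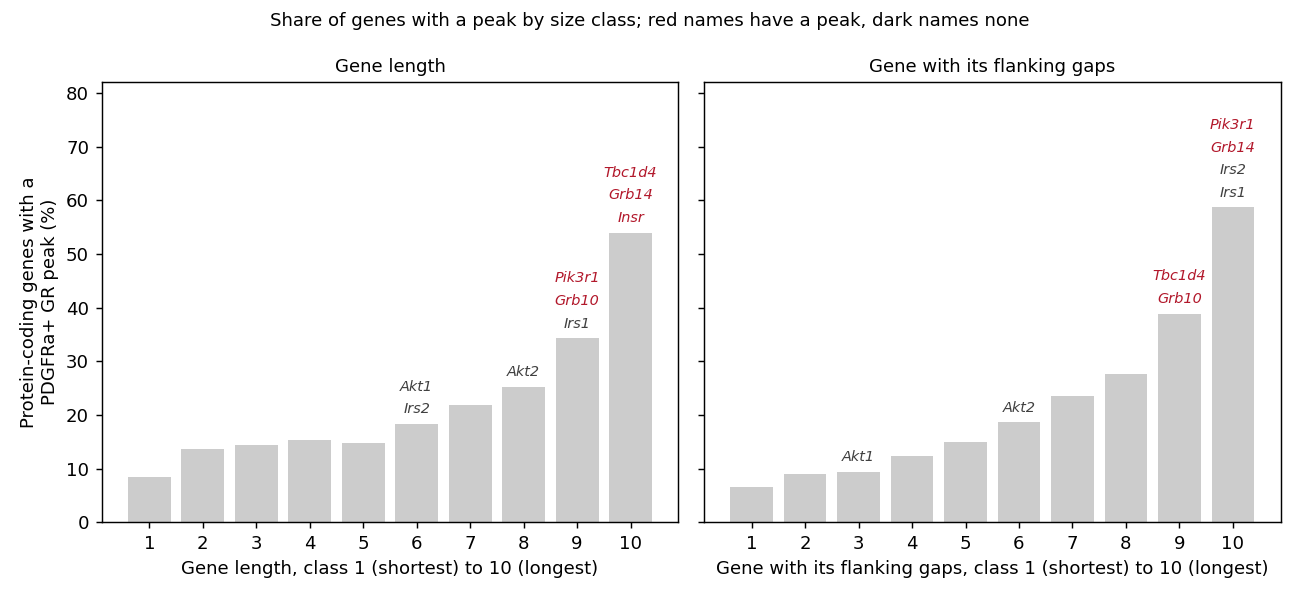
Share of protein-coding genes with a PDGFRa+ GR peak (y axis, %) in 10 classes of gene length (left) and of gene length plus the gaps to the flanking genes (right), from shortest to longest. The share runs from 8.41% to 54.0% by length and from 6.59% to 58.7% with gaps; names of the 9 genes stand above their class, red with a peak and dark without, and Insr has no class on the right.

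In this library the 6 peaks lay farther from start sites than most peaks of the wider pathway, a difference that was not tested. Within 100 kb of the start site 2 of the 9 genes kept a peak, Grb10 and Tbc1d4, against 19.4% of protein-coding genes. Within 20 kb 0 of the 9 had one, against 11.0%. The median distance of the 6 peaks was 120946.5 bp, against 47254.5 bp in the whole list, in which 48.8% of peaks lay beyond 50 kb. Among the 22 peaks listed under 65 other genes of the insulin pathway, 3 lay beyond 50 kb and the median distance was 14205 bp. Median gene length was 87457 bp in the 9 genes and 51649 bp in the 65 others. With the gaps to the flanking genes, the medians were 498522.5 bp (without Insr) and 104888 bp. Whether the distances go with these spans was not tested. Annotated repeats held 4 of the 6 peaks, 9 of the 22 and 38.1% of the list. When peaks had to score at least 40, 3 of the 9 genes had one (Grb10, Pik3r1 and Tbc1d4), against 12.1% of protein-coding genes, and at a minimum of 50 it was 0 of the 9, against 2.55%. With repeat peaks left out, 2 of the 9 had a peak (Grb14 and Tbc1d4), against 15.9%.

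Of the 65 other pathway genes, 17 had a peak (26.2%), near the 22.0% of all protein-coding genes. These genes and their roles were also chosen with earlier results of these data known. Inhibitors of the receptor and its substrates had a peak in 4 of 8 genes. Dok1, a docking protein that is a target of tyrosine kinases, had a score of 45, 11832 bp from its start site and inside an intron of the neighbouring M1ap. Ptpn1, the phosphatase PTP1B that dephosphorylates the insulin receptor, had a score of 41 in its own intron 1 of 8.

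Subunits of phosphatidylinositol 3-kinase and lipid phosphatases had a peak in 4 of 9 genes besides Pik3r1, with scores of 25 to 33. Inpp5d, the phosphatase SHIP1, had a peak with a score of 33 at 1983 bp downstream in intron 1 of 27. Pik3cd, a catalytic subunit found mainly in leukocytes, had a score of 33 at 2183 bp upstream of the start site used, within intron 2 of 23 of another Pik3cd transcript. Both thus lay far closer to a start site than the Pik3r1 peak at 301130 bp.

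Kinases and phosphatases around Akt had a peak in 4 of 9 genes, among them Phlpp2, a phosphatase that removes an activating phosphate from Akt, with a score of 41 in intron 6 of 18. Receptor adaptors had a peak in 3 of 12. Sos1, the exchange factor that links the receptor to Ras, had a score of 41 at 1046 bp upstream.

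Targets of Akt and of the mTORC1 kinase complex had a peak in 2 of 16 genes. Foxo3, a forkhead factor that Akt excludes from the nucleus, had 2 peaks with a score of 41 each, at 15486 bp downstream in its intron 2 of 3 and at 47216 bp upstream inside Afg1l. Foxo1, its relative, had a score of 26 at 62617 bp upstream. Glucose transporter trafficking had a peak in 0 of 11 genes, Slc2a4, the gene of Glut4, among them, so that Tbc1d4 was the only gene of that branch with one. None of the counts by role takes gene length into account, although longer genes more often had a peak. Socs1, an inhibitor of cytokine and insulin receptor signalling named here after its values were seen, held the single exonic peak of the 28, annotated to its 5' UTR at a distance of 630 bp, with a score of 31.

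**Figure D4:**
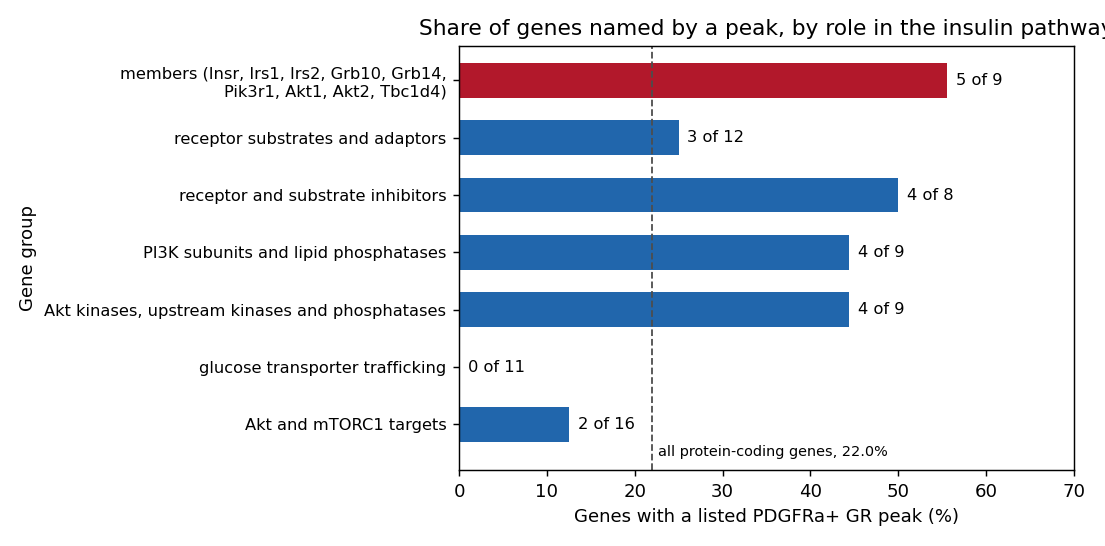
Percentage of genes named by a PDGFRa+ GR peak (x axis) for the 9 genes in red and for the 65 other insulin pathway genes in blue by role, with counts at the bars and the 22.0% of all protein-coding genes as a dashed line. The 9 genes stand at 55.6%, the inhibitors at 4 of 8 genes, and the trafficking genes at 0 of 11.

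In CD137+ cells none of the 9 genes was in the deposited table, which lists 30 genes for 23 GR intervals. Of all protein-coding genes 0.114% were in it, so a count of 0 of 9 says little. The nearest interval to any of the 9 stood next to Grb10. Ddc, which encodes an enzyme of dopamine and serotonin synthesis, is the flanking gene of Grb10, 32355 bp from it, and held 2 intervals, 53472 and 53600 bp into its length of 84043 bp, with a mean peak value of 41.5 in the authors' unit. The closer of them (chromosome 11, 11844672, mm10) was 85827 bp from the far end of Grb10, on the other side of the gene from the PDGFRa+ pair. Ddc had no peak in the PDGFRa+ list. None of the flanking genes of the other 8 was in the table. The next closest interval was 2307480 bp from Tbc1d4, in Pibf1, and chromosome 8, which holds Insr and Irs2, had none.

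Of the 65 other pathway genes, 2 were in the CD137+ table. Vamp2, the vesicle protein through which Glut4 vesicles fuse with the cell surface, was listed for an interval 8528 bp from its start and past its end (chromosome 11, 69097056, mm10), with a peak value of 52 against a median of 41.75 over the 30 genes. The same interval was listed under the clock gene Per1, and a PDGFRa+ interval stood beside it at 8496 bp. In the PDGFRa+ list a peak with a score of 38 stood 1860 bp upstream of Per1, and was listed under Per1 and not under Vamp2. Whether that peak is the same site was not checked, since the list is on another build. Cblb, a ubiquitin ligase of the Cbl family, held an interval 63251 bp into the gene (chromosome 16, 52094800, mm10) with a value of 39, and had no PDGFRa+ interval in the table and no peak in the PDGFRa+ list. The 2 tables differ in format and build, so these entries are not read as a difference between the cell types.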

How the data were processed

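GR chromatin immunoprecipitation sequencing was analysed from 1 library each of PDGFRa+ and CD137+ cells; inputs were not analysed here. The authors deposited a peak score per PDGFRa+ peak and, for CD137+ genes, a peak signal, both on unexplained scales. Per the submitters' processing notes, Bowtie2, MACS2, bedtools 2.17.0, SAMtools, FastQC and mm10 were used, in unstated roles. Use of the inputs in peak calling and the read depth were not stated, so no interval that needs depth was computed.

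A gene counted if a peak at any distance carried its name, with python 3.11.15 and pandas 2.3.3. Background shares are over 21887 protein-coding genes of the GRCm38.p6 RefSeq table, which also gave lengths and neighbours; it matched all 9 genes and the 65 others. The counting was tested on simulated data. The 9 genes, the pathway list and its roles were chosen with earlier results of these data known. Named pathway genes are the 2 highest-scoring per role, by distance at ties, and those in the CD137+ table; 2 genes named by this rule are not reported here. Alternatives varied the minimum score, the distance limit, repeat peaks and name matching.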

Additional observations from a re-analysis of the deposited data

How the results depend on the processing

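Of the 9 genes, 3 kept a peak at a score of 40 or more (3 peaks), 0 at 50 or more (0 peaks), 2 within 100 kb (2 peaks), 0 within 20 kb (0 peaks) and 2 without repeat peaks (2 peaks), against 5 genes and 6 peaks with every peak counted. For all protein-coding genes the same settings gave 2645, 558, 4241, 2402 and 3487 in place of 4816, or 12.1%, 2.55%, 19.4%, 11.0% and 15.9%. For the 65 other pathway genes they gave 7, 0, 17, 12 and 11 in place of 17. Each setting leaves fewer peaks by construction. Tbc1d4 alone kept its peak under a score of 40, the 100 kb limit and removal of repeats alike. Matching by gene identifier gave the same counts for the 9 genes, the 65 others and the CD137+ table, and 22.5% of all protein-coding genes. The unknown depth limits every count, and 1 library per cell type allows no replicate check. No paired analysis was possible because each group has 1 library.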
